A study of Mus musculus with 9 samples.

Results

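Nodal, its co-receptor, its antagonists and the factors that carry its signal were followed in mouse embryonic stem cells depleted of Phf5a or Paf1. The 9 genes are Nodal, Gdf3, Tdgf1, Lefty1, Lefty2, Smad2, Smad3, Foxh1 and Skil, of 22180 genes measured. Members were selected on their symbol in the platform's annotation and, where a gene has several probe sets, on the highest mean over the 9 arrays. Each of the 9 had 1 probe set with a single symbol, so that in effect the mean level chose none of them. The genes were listed with earlier results of these arrays known, among them the changes of Lefty1 and Lefty2.

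All 9 arrays hold RNA of the Nanog-GFP (NG4) reporter line, embryonic stem cells of 129/Sv origin with a fluorescent reporter of Nanog, kept on gelatin with LIF, the cytokine that holds such cells undifferentiated. The groups are shPhf5a, a hairpin against Phf5a, a subunit of the SF3b splicing complex; shPaf1, a hairpin against Paf1, which names a complex that travels with elongating RNA polymerase II; and shControl, a control hairpin. Each has 3 arrays and, per the labels, 1 hairpin name, and cells of every group, controls included, had received a pLKO.1-based lentivirus and 2 μg/mL puromycin for 72 h. By its title, the series concerns Phf5a as a regulator of transcript elongation in pluripotent and differentiating cells. Whether replicates are separate cultures is not said in the labels, and p-values then measure only the spread between these arrays, which may be technical.

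Nodal is a secreted ligand of the TGF-β superfamily. With the membrane-anchored co-receptor encoded by Tdgf1 (Cripto), it engages activin receptors of type I and type II, which phosphorylate Smad2 and Smad3. These bind Smad4, enter the nucleus and act with partners such as Foxh1. Lefty1 and Lefty2 are targets of the pathway and also secreted inhibitors of it, which gives the pathway a negative feedback loop. In mouse embryonic stem cells the pathway is active through ligand that the cells make themselves, and it is known for its part in the exit from naive pluripotency and in the choice of mesendoderm.

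Values are log2 expression as deposited, and a difference of 1 is 2-fold. A gene was called changed at an adjusted p under 0.05 in limma, with adjustment over all 22180 genes. Phf5a lay at 34.4%, 55.9% and 39.6% of the control mean in shPhf5a replicates 1, 2 and 3, and Paf1 at 37.7%, 38.9% and 38.0% in shPaf1. Phf5a was also lower in shPaf1, at 64.3%, 62.0% and 76.2% of the control mean (log2 difference -0.57, limma adjusted p = 0.0183). Paf1 was lower in shPhf5a too, at 76.5%, 95.7% and 81.8% (-0.25, limma adjusted p = 0.0267). Of the shPhf5a arrays, replicate 2 had the most Phf5a left, and what part that plays was not tested. Replicate 2 lay nearer to the control mean than the other shPhf5a arrays for 6 of the 9 members, a count not made over all genes. It also differed most from its partners over all genes (SD of the difference 0.23 and 0.19, against 0.16 between the other shPhf5a arrays and at most 0.13 in the other groups). The members' differences from shControl in shPhf5a, and the counts of the lists, are therefore also given without it.

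Against shControl, 3 members rose and 4 fell in shPhf5a, where 37.4% of all genes were called (16.7% higher and 20.7% lower). In shPaf1, 5 rose and 2 fell, where 35.8% of all genes were called (18.0% higher and 17.8% lower). Between the knockdowns, 2 were higher and 4 lower in shPhf5a than in shPaf1, where 29.0% of all genes were called (12.7% higher and 16.3% lower). For 8 of the 9 members the shPhf5a arrays lay wholly apart from the shControl arrays, as they did for 45.8% of all genes. For 8 the shPaf1 arrays did so (48.3% of all genes), and for 7 the shPhf5a and shPaf1 arrays lay apart (37.7%). Without shPhf5a replicate 2, 3 members rose and 5 fell in shPhf5a, where 39.8% of all genes were called. The median size of a member's change was 0.57 in shPhf5a and 0.48 in shPaf1, beside 0.13 over all genes in each. All 9 members lay above the median gene in level, and changes of dim genes look smaller on such arrays. A comparison with genes of like level was not made. Both knockdowns share the control arrays, so that their values are given side by side and the difference between them rests on the direct comparison. The antagonists Lefty1 and Lefty2 gave the largest changes, and both fell in shPhf5a and rose in shPaf1.

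**Figure D1:**
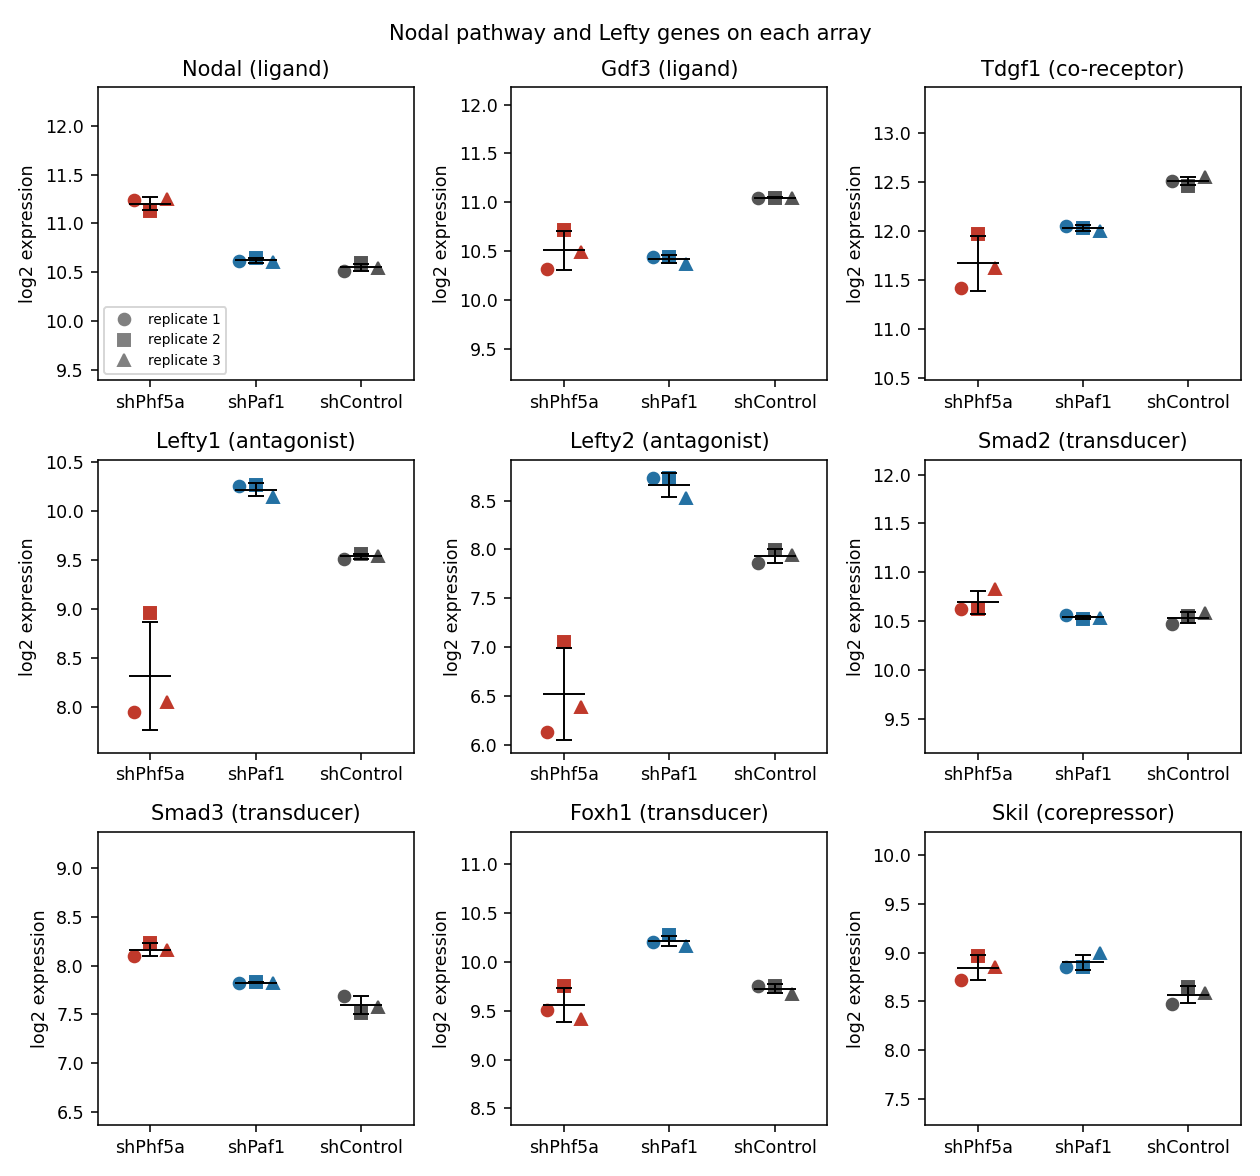
Log2 expression of each member on each array (points, shaped by replicate), with the group mean and SD (black bars, n = 3 arrays). Every panel spans 3 log2 units. The shPhf5a arrays of Lefty1 and Lefty2 lie below, and the shPaf1 arrays above, all arrays of shControl.

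Lefty1 and Lefty2, the feedback antagonists, fell in shPhf5a and rose in shPaf1. Lefty1 was at 7.95, 8.95 and 8.05 in shPhf5a, at 10.26, 10.27 and 10.14 in shPaf1, and at 9.52, 9.56 and 9.54 in shControl. The 3 groups did not overlap, and shPhf5a replicate 2 lay between its partners and the controls. Lefty1 fell by 1.22 in shPhf5a (SE 0.21, 2.33-fold, limma adjusted p = 0.00132) and rose by 0.68 in shPaf1 (SE 0.21, 1.61-fold, limma adjusted p = 0.0305). On the linear scale the shPhf5a arrays held 33.2%, 66.7% and 35.7% of the control mean, and the shPaf1 arrays held 165%, 166% and 152%. In bulk RNA, fewer cells that make a transcript and less transcript per cell cannot be told apart.

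The rise of Lefty1 in shPaf1 was the less secure of these calls. Leaving out any 1 of the 3 shPaf1 or 3 shControl arrays ended it, with adjusted p between 0.0616 and 0.0882, although the difference stayed between 0.66 and 0.72. The spread that the groups share came mainly from shPhf5a, where the SD of Lefty1 was 0.55, against 0.07 in shPaf1 and 0.02 in shControl. Without shPhf5a replicate 2 the same rise of 0.68 had adjusted p = 1.02e-05, and with the shPhf5a arrays left out of the fit 2.91e-05. The log2 difference in shPhf5a was -1.54 without replicate 2 (adjusted p = 2.7e-07).

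Lefty2, the paralogue of Lefty1, moved in the same way. It was at 6.13, 7.05 and 6.39 in shPhf5a, at 8.73, 8.74 and 8.52 in shPaf1, and at 7.863, 7.998 and 7.939 in shControl, again with no overlap between groups. It fell by 1.41 in shPhf5a (SE 0.19, 2.66-fold, limma adjusted p = 0.00029) and held 28.7%, 54.2% and 34.2% of the control mean there. Without replicate 2 the log2 difference was -1.67 (adjusted p = 1.59e-06). It rose by 0.73 in shPaf1 (SE 0.19, 1.66-fold, limma adjusted p = 0.0124), where its arrays held 150.3% to 174% of that mean. RefSeq places Lefty1 and Lefty2 on the same chromosome. Probes of paralogues may share sequence, and how far each probe set reads the other transcript was not tested.

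Set directly against shPaf1, the Lefty genes were among the strongest falls of the table. Lefty2 was 2.14 lower in shPhf5a than in shPaf1 (a log2 difference of -2.14, SE 0.19, 95% confidence interval -2.56 to -1.72, 4.41-fold, limma adjusted p = 3.73e-05). Lefty1 differed by -1.90 (SE 0.21, interval -2.38 to -1.43, 3.74-fold, adjusted p = 0.000147). Ranked by size among all genes lower in shPhf5a than in shPaf1, they were in places 7 and 16.

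**Figure D2:**
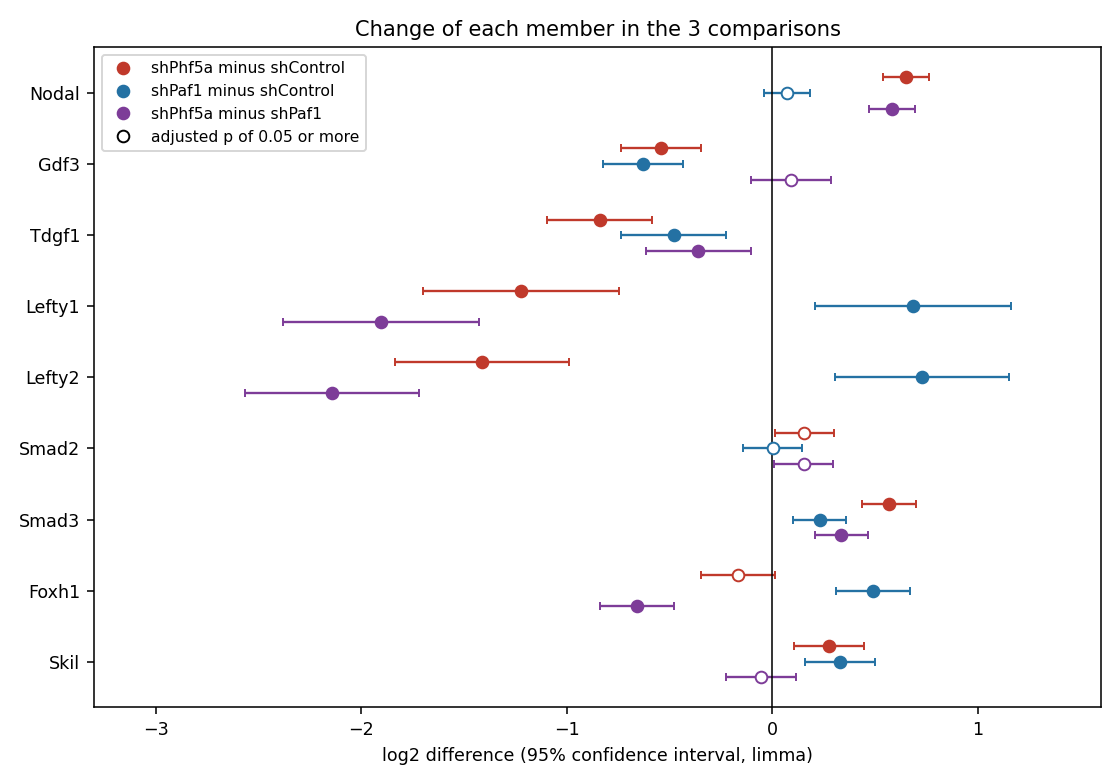
Log2 difference of each member in shPhf5a minus shControl (red), shPaf1 minus shControl (blue) and shPhf5a minus shPaf1 (purple), with the 95% confidence interval from limma; open points have an adjusted p of 0.05 or more. Lefty1 and Lefty2 lie left of 0 in red and right of 0 in blue, and the filled points of Nodal, in red and purple, lie right of 0.

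The ligand genes did not follow the Lefty genes. Nodal was at 11.24, 11.12 and 11.25 in shPhf5a, at 10.61, 10.65 and 10.60 in shPaf1, and at 10.52, 10.59 and 10.55 in shControl. All shPhf5a arrays stood above all others, while shPaf1 and shControl lay close together without overlap. Nodal rose by 0.65 in shPhf5a (SE 0.05, 1.57-fold, limma adjusted p = 1.4e-05), and by 0.69 without replicate 2 (adjusted p = 5e-06). In shPaf1 the difference of 0.07 did not pass (95% confidence interval -0.04 to 0.18, adjusted p = 0.346), and the direct difference of 0.58 did (SE 0.05, adjusted p = 3.17e-05). In shPhf5a, then, the transcript of the ligand was higher and those of its antagonists lower, while in shPaf1 the antagonists were higher and the ligand was not called.

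Gdf3, a ligand related to Nodal that signals through the same co-receptor, fell in both knockdowns. It was at 10.31, 10.72 and 10.49 in shPhf5a, at 10.44, 10.44 and 10.37 in shPaf1, and at 11.05, 11.04 and 11.05 in shControl. The shControl arrays stood above all knockdown arrays, which overlapped each other. The fall was 0.54 in shPhf5a (SE 0.09, 1.45-fold, limma adjusted p = 0.000843), at -0.65 without replicate 2, and 0.63 in shPaf1 (SE 0.09, 1.55-fold, adjusted p = 0.000316). The direct difference of 0.09 did not pass (interval -0.11 to 0.28, adjusted p = 0.533).

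Tdgf1, which encodes the co-receptor that Nodal and Gdf3 use, fell in both knockdowns as well. It was at 11.42, 11.97 and 11.62 in shPhf5a, at 12.05, 12.04 and 12.00 in shPaf1, and at 12.51, 12.46 and 12.55 in shControl. The groups did not overlap, although shPhf5a replicate 2 came close to the lowest shPaf1 array. Tdgf1 fell by 0.84 in shPhf5a (SE 0.11, 1.79-fold, limma adjusted p = 0.000306), with a difference of -0.99 without replicate 2, and by 0.48 in shPaf1 (SE 0.11, 1.39-fold, adjusted p = 0.00763). The direct difference of -0.36 passed (adjusted p = 0.0391), but the call ended when any array other than shPhf5a replicate 2 was left out, when all probe sets were tested and when the shControl arrays were left out of the fit (adjusted p from 0.0538 to 0.115). Without shPhf5a replicate 2 it was -0.51 (adjusted p = 0.000379).

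RefSeq promoter sequences, from 250 bases before to 50 bases after the transcript start, were at hand for Nodal, Tdgf1 and Smad3, 3 of the 9 members. Those of Nodal and Tdgf1 are shown because the ligand rose and its co-receptor fell in the same shPhf5a arrays. Capitals mark matches, on either strand, to 6 short motifs: CAGAC (the core bound by Smad proteins), AATCCACA and AATACACA (bound by Foxh1), ATGCAAAT (the octamer bound by Oct4), GGGCGTGG (bound by Sp and Klf factors) and TATAAA (the TATA box).
Nodal, GRCm38.p6, chr10:61417722-61418021, plus strand: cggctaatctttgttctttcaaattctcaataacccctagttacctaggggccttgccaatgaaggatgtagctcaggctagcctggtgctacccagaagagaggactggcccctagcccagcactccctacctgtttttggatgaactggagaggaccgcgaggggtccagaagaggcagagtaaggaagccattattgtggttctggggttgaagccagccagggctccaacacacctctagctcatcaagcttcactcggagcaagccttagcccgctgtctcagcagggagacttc
Tdgf1, GRCm38.p6, chr9:110946109-110946408, minus strand: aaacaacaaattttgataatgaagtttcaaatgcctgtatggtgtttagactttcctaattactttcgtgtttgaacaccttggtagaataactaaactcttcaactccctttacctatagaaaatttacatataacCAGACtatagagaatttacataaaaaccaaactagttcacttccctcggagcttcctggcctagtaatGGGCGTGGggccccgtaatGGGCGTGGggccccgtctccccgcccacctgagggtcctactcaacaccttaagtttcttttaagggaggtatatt

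The Tdgf1 window held CAGAC 113 bases before the start and GGGCGTGG at 45 and 26 bases before it, with no overlap between the matches. Of 32851 promoter windows in the RefSeq table, 49.6% hold CAGAC and 5.33% hold GGGCGTGG. The Nodal and Smad3 windows held none of the 6 motifs. AATCCACA, AATACACA, ATGCAAAT and TATAAA are in 0.855%, 0.98%, 1.74% and 13.6% of all windows. The windows differ in composition, with 54% G and C in Nodal, 41.7% in Tdgf1 and 67.7% in Smad3, beside a median of 52.7%. These matches describe letters only and say nothing of what binds there.

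Of the factors that carry the signal inside the cell, Smad3 rose in both knockdowns. It was at 8.10, 8.23 and 8.16 in shPhf5a, at 7.82, 7.83 and 7.83 in shPaf1, and at 7.69, 7.51 and 7.58 in shControl, with no overlap between any groups. It rose by 0.57 in shPhf5a (SE 0.06, 1.48-fold, limma adjusted p = 6.24e-05), by 0.53 without replicate 2, and by 0.23 in shPaf1 (SE 0.06, 1.17-fold, adjusted p = 0.0102). The direct difference of 0.34 passed too (adjusted p = 0.00176).

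Smad2, the other receptor-regulated Smad of the pathway, was not called in any of the 3 comparisons. It was at 10.62, 10.62 and 10.83 in shPhf5a, at 10.56, 10.52 and 10.53 in shPaf1, and at 10.47, 10.55 and 10.59 in shControl. The shPhf5a arrays stood above all others, and shPaf1 and shControl overlapped. The difference was 0.16 in shPhf5a (interval 0.01 to 0.30, limma adjusted p = 0.0852) and passed after quantile normalization (0.24, adjusted p = 0.0156) and with array weights (0.23, adjusted p = 0.0104). It was 0.19 without replicate 2 (adjusted p = 0.0527), 0.087 without replicate 3 (adjusted p = 0.267) and 0.12 after centring (adjusted p = 0.210), and passed in none of these. In shPaf1 it was 0.002 (interval -0.14 to 0.14). The direct difference of 0.15 did not pass (adjusted p = 0.107), though it did with array weights (0.23, adjusted p = 0.0125).

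Foxh1, the DNA-binding partner of the Smad complex, rose in shPaf1. It was at 9.51, 9.75 and 9.41 in shPhf5a, at 10.21, 10.27 and 10.16 in shPaf1, and at 9.75, 9.75 and 9.67 in shControl. The shPaf1 arrays stood above all others, and shPhf5a replicate 2 shares its deposited value exactly with shControl replicates 1 and 2. The rise in shPaf1 was 0.49 (SE 0.08, 1.40-fold, limma adjusted p = 0.0009), and Foxh1 was lower in shPhf5a than in shPaf1 by a difference of -0.66 (SE 0.08, adjusted p = 0.000252). In shPhf5a against shControl the difference of -0.17 did not pass (adjusted p = 0.141). It was -0.26 without shPhf5a replicate 2 (adjusted p = 0.00473) and -0.25 with array weights (adjusted p = 0.0123), and passed in both, whereas without shPhf5a replicate 3 it was -0.095 (adjusted p = 0.425).

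Skil encodes SnoN, a corepressor of Smad complexes that is itself a target of the pathway, and it rose in both knockdowns. It was at 8.71, 8.97 and 8.85 in shPhf5a, at 8.85, 8.85 and 8.99 in shPaf1, and at 8.47, 8.64 and 8.59 in shControl. The shControl arrays lay below all knockdown arrays. The rise was 0.28 in shPhf5a (SE 0.08, 1.21-fold, limma adjusted p = 0.0165) and 0.33 in shPaf1 (SE 0.08, 1.26-fold, adjusted p = 0.0067). In shPhf5a the difference was 0.21 without replicate 2 (adjusted p = 0.0459), and the call ended without shControl replicate 1 (0.23, adjusted p = 0.068) and after centring of each array (0.24, adjusted p = 0.0516). The direct difference of -0.05 did not pass (interval -0.22 to 0.12).

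The wider pathway was read from a list of 25 further components, 23 of them measured, and a list of 11 target genes, 9 of them measured. Of the components, 5 rose and 4 fell in shPhf5a, and 6 rose and 3 fell in shPaf1, so that 39.1% were called in each, beside 37.4% and 35.8% of all genes. Between the knockdowns 3 were higher and 7 lower in shPhf5a than in shPaf1, or 43.5%, beside 29.0% of all genes. Without shPhf5a replicate 2, 5 rose and 5 fell in shPhf5a, where 39.8% of all genes were called. In that fit 2 were higher and 7 lower in shPhf5a than in shPaf1, where 32.8% of all genes were called. The median difference of the components was 0.02 in shPhf5a and 0.05 in shPaf1, beside -0.03 and -0.01 over all genes. The largest changes were those of an activin subunit gene and of a convertase gene.

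**Figure D3:**
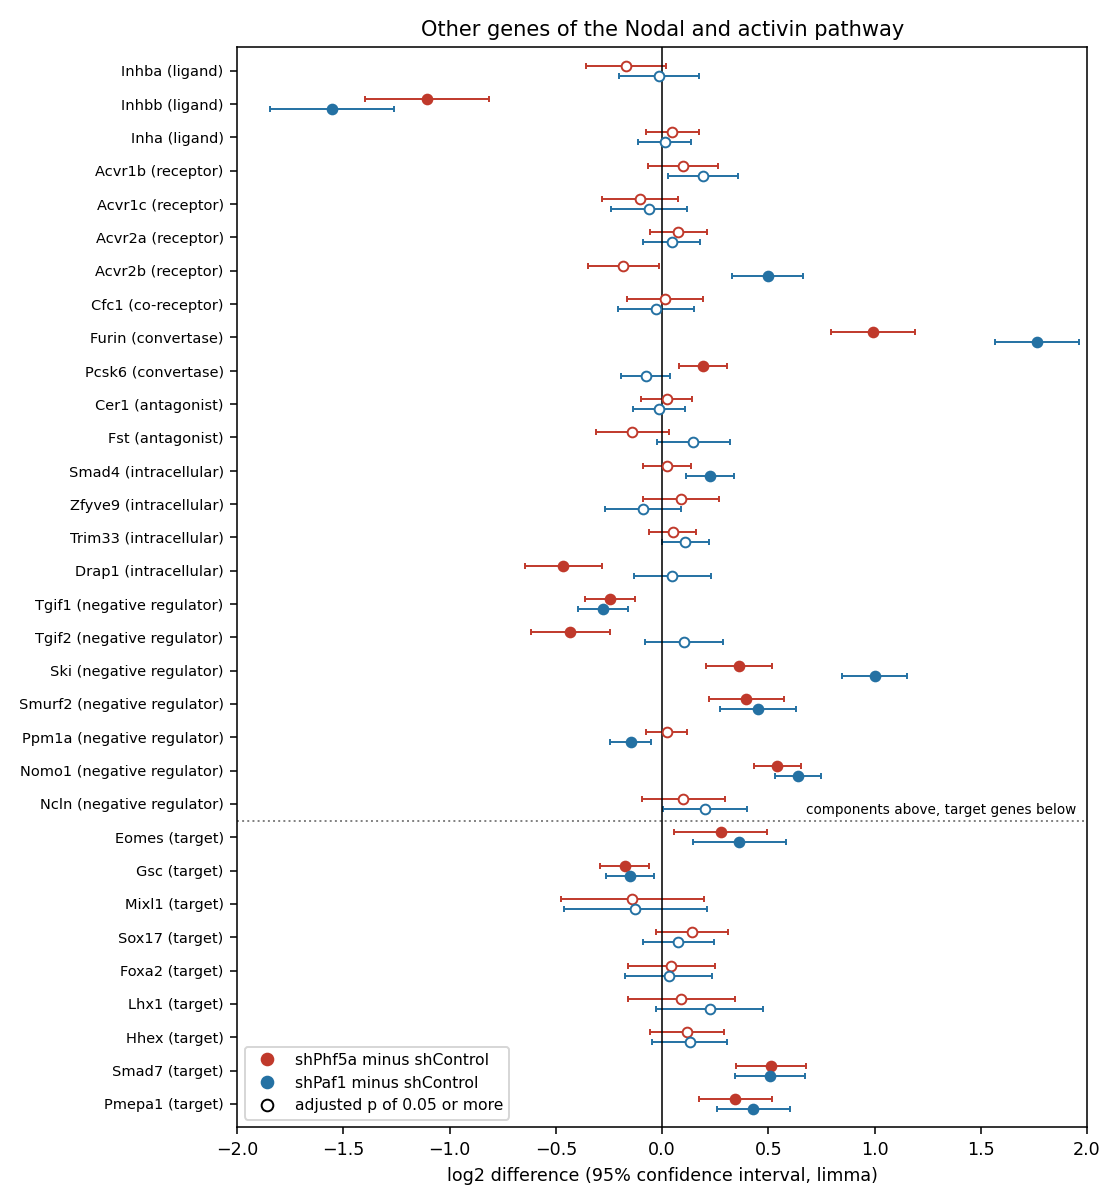
Log2 difference of 23 other components (above the dotted line) and 9 target genes (below it) in shPhf5a minus shControl (red) and shPaf1 minus shControl (blue), with the 95% confidence interval from limma; open points have an adjusted p of 0.05 or more. Inhbb lies farthest to the left and Furin farthest to the right.

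Among ligands, Inhbb, the βB subunit of activins and inhibins, fell in both knockdowns. It was between 6.77 and 7.28 in shPhf5a, between 6.38 and 6.69 in shPaf1, and between 8.03 and 8.28 in shControl, in 3 separate ranges. It fell by 1.11 in shPhf5a (SE 0.13, 2.15-fold, limma adjusted p = 0.000141) and by 1.55 in shPaf1 (SE 0.13, 2.93-fold, adjusted p = 1.52e-05), and the direct difference of 0.45 passed (adjusted p = 0.0281). That direct call ended in 5 of 18 alternatives (adjusted p 0.0553 to 0.109), which were a fit on only the 6 arrays compared and fits without shPhf5a replicate 2 or 3 or shPaf1 replicate 1 or 2. Inhba, the βA subunit, and Inha, the inhibin α subunit, were not called, with differences of -0.17 and 0.05 in shPhf5a and of -0.01 and 0.01 in shPaf1. Their mean levels over all arrays, 5.29 and 6.62, lay below the median gene (6.70).

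Of the 4 receptor genes only Acvr2b, a type II receptor, was called. It rose by 0.50 in shPaf1 (SE 0.07, limma adjusted p = 0.000494), and was at -0.18 in shPhf5a (adjusted p = 0.0829). The difference between the knockdowns was -0.68 (SE 0.07, adjusted p = 0.000126). The type I receptors Acvr1b and Acvr1c and the type II receptor Acvr2a were at 0.10, -0.11 and 0.08 in shPhf5a and at 0.19, -0.06 and 0.04 in shPaf1. Acvr2b also passed in shPhf5a, and Acvr1b in shPaf1, when shPhf5a replicate 2 was left out. Cfc1, the paralogue of the co-receptor, was at 0.01 in shPhf5a and -0.03 in shPaf1. Acvr1c and Cfc1 were dim, with mean levels over all arrays of 5.20 and 6.33, below the median gene (6.70).

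Furin, a convertase that can cleave the Nodal precursor, rose by 0.99 in shPhf5a (SE 0.09, 1.99-fold, limma adjusted p = 3.24e-05) and by 1.76 in shPaf1 (SE 0.09, 3.40-fold, adjusted p = 1.19e-06). Its levels were 8.83, 8.47 and 8.54 in shPhf5a, 9.43, 9.40 and 9.32 in shPaf1, and 7.64, 7.55 and 7.68 in shControl, in 3 separate ranges. The direct difference was -0.77 (adjusted p = 0.000175). Pcsk6, a second convertase of the precursor, rose by 0.19 in shPhf5a (SE 0.05, adjusted p = 0.0133), was at -0.08 in shPaf1, and differed by 0.27 between them (adjusted p = 0.00289). The extracellular antagonists Cer1 and Fst were not called against shControl. Fst, which binds activins, was at -0.14 in shPhf5a and 0.15 in shPaf1, and the direct difference of -0.29 passed (adjusted p = 0.0183). It missed the threshold in the fit on only the 6 arrays compared and in those without shPaf1 replicate 1 or 3 (adjusted p 0.0527 to 0.0695).

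Several intracellular regulators differed between the knockdowns. Drap1, whose product inhibits Foxh1, fell by 0.47 in shPhf5a (SE 0.08, limma adjusted p = 0.00126) and was at 0.05 in shPaf1, with a direct difference of -0.51 (adjusted p = 0.00104). The corepressor gene Tgif2 fell by 0.43 in shPhf5a (SE 0.08, adjusted p = 0.0022) and was at 0.10 in shPaf1, with a direct difference of -0.54 (adjusted p = 0.000914). Its paralogue Tgif1 fell by 0.25 in shPhf5a and by 0.28 in shPaf1. Ski, the paralogue of Skil, rose by 0.36 in shPhf5a (SE 0.07, adjusted p = 0.00221) and by 1.00 in shPaf1 (SE 0.07, adjusted p = 5.18e-06), with a direct difference of -0.64 (adjusted p = 0.000121).

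The ubiquitin ligase gene Smurf2 rose by 0.40 in shPhf5a and 0.45 in shPaf1. Nomo1, whose product antagonises Nodal signalling in zebrafish, rose by 0.54 in shPhf5a and 0.64 in shPaf1. The direct differences of -0.05 and -0.10 did not pass (intervals -0.23 to 0.12 and -0.21 to 0.01). Smad4, the partner shared by all receptor-regulated Smads, rose by 0.23 in shPaf1 (SE 0.05, limma adjusted p = 0.00538) and was at 0.02 in shPhf5a, with a direct difference of -0.21 (adjusted p = 0.0121), which missed the threshold without shPaf1 replicate 2 (adjusted p = 0.0511). The phosphatase gene Ppm1a fell by 0.15 in shPaf1 (adjusted p = 0.0215) and was at 0.02 in shPhf5a. Ppm1a was higher in shPhf5a than in shPaf1 by a direct difference of 0.17 (adjusted p = 0.0141), which passed in all 18 alternatives. The size depends on the probe set, since with the mean of the gene's 2 probe sets the difference was -0.57 in shPaf1 (adjusted p = 4.32e-05) and 0.53 between the knockdowns (adjusted p = 0.000121). The call in shPaf1 ended after quantile normalization (-0.091) and without shPaf1 replicate 2 or 3 or shControl replicate 1 (adjusted p 0.0563 to 0.175).

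Of 9 measured target genes, 3 rose and 1 fell in each knockdown, or 44.4%, beside 37.4% of all genes in shPhf5a and 35.8% in shPaf1. In shPhf5a without replicate 2, Smad7 and Pmepa1 kept their calls, and Eomes and Gsc lost theirs. Smad7, an inhibitory Smad, rose by 0.51 in shPhf5a (SE 0.07, limma adjusted p = 0.000434) and by 0.51 in shPaf1 (SE 0.07, adjusted p = 0.000414). Pmepa1, a membrane protein that sequesters Smads, rose by 0.34 in shPhf5a (adjusted p = 0.00503) and 0.43 in shPaf1 (adjusted p = 0.00141). The mesendoderm factor gene Eomes rose by 0.28 in shPhf5a (adjusted p = 0.0496) and 0.36 in shPaf1 (adjusted p = 0.0147). The call in shPhf5a ended in 13 of 18 alternatives (adjusted p 0.0523 to 0.173), among them those without shPhf5a replicate 2 or 3, any 1 of the shPaf1 arrays, or shControl replicate 1 or 3, and the call in shPaf1 ended without shPaf1 replicate 1 or shControl replicate 1 or 3 (adjusted p 0.0552 to 0.0590). Gsc, an organiser factor, fell by 0.18 in shPhf5a (adjusted p = 0.0202) and 0.15 in shPaf1 (adjusted p = 0.0431). In shPhf5a that call ended in 6 alternatives (adjusted p 0.0507 to 0.0669), among them those without shPhf5a replicate 1 or 2 or shControl replicate 2 or 3, and in shPaf1 in 8 (adjusted p 0.0508 to 0.141), among them those without any 1 of the shPaf1 or shControl arrays. Mixl1, Sox17, Foxa2, Lhx1 and Hhex were not called in either. Between the knockdowns 0 of 9 were called by limma, beside 29.0% of all genes, and 0 had an unadjusted p under 0.05. Over all arrays, Lhx1, Mixl1 and Sox17 had means of 5.68, 6.29 and 6.58, below the median gene (6.70). Eomes, Gsc, Hhex and Foxa2 lay from 6.75 to 7.38, and Smad7 and Pmepa1 at 9.99 and 9.28. Changes of dim genes look smaller on such arrays, so this count may miss changes of the dimmer targets. The direct difference was 0.0032 for Smad7 (interval -0.16 to 0.17) and -0.09 for Pmepa1 (interval -0.26 to 0.09), beside -1.90 and -2.14 for Lefty1 and Lefty2, which are targets too.

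The genes most like the members in pattern were taken by the root mean square difference, over the 9 arrays, between the deviations of 2 genes from their own shControl mean, among 10402 genes above the median level. The gene most like Lefty1 was Lefty2, and the reverse also held (0.13 log2 units). Next came Nnat (0.18), Ppm1j (0.21) and Tmem59l (0.21) for Lefty1, and Ppm1j (0.16), Tmem59l (0.23) and Nnat (0.24) for Lefty2. Nnat encodes neuronatin, Ppm1j a protein phosphatase and Tmem59l a membrane protein. These 3 genes were lower in shPhf5a by differences of -1.14, -1.46 and -1.15, and higher in shPaf1 by 0.49, 0.47 and 0.65. Nodal stood far off, in place 9552 for Lefty1 and 9571 for Lefty2 (1.18 and 1.28 log2 units). The genes most like Nodal were Erdr1 (0.04), Mapkap1, a subunit of mTOR complex 2 (0.05), Me1, the cytosolic malic enzyme (0.05), and Ttyh2 (0.05).

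**Figure D4:**
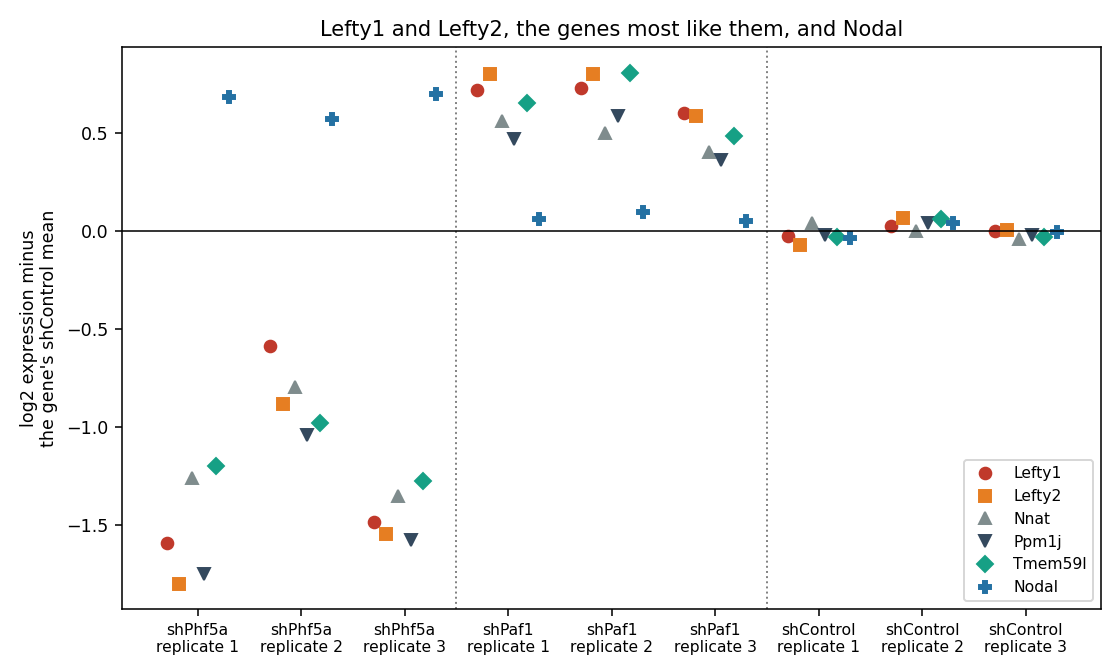
Log2 expression minus the gene's own shControl mean on each of the 9 arrays, for Lefty1, Lefty2, the 3 genes most like both, and Nodal. The 5 like genes lie below 0 on every shPhf5a array, least so on replicate 2, and above 0 on every shPaf1 array, while Nodal lies above 0.5 on the shPhf5a arrays.

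Of the called markers of cell state, those of embryonic stem cells mostly fell and those of primitive endoderm mostly rose, in both knockdowns. Lefty1 and Lefty2, by contrast, both fell in shPhf5a and both rose in shPaf1. Of 8 markers of embryonic stem cells, 1 rose and 5 fell in shPhf5a (75%, beside 37.4% of all genes) and 5 fell in shPaf1 (62.5%, beside 35.8%). Their mean per array was 9.78 to 9.94 in shPhf5a, 9.57 to 9.61 in shPaf1 and 10.03 to 10.09 in shControl. Between the knockdowns 5 of the 8 were called (beside 29.0% of all genes), all higher in shPhf5a than in shPaf1. In every group 7 of the 8 had means above the median gene, and Dppa5a did not (6.04 in shPhf5a, 5.95 in shPaf1 and 6.12 in shControl). Of 8 markers of primitive endoderm, where Lefty1 is also made in the embryo, 4 rose and 1 fell in shPhf5a (62.5%) and 4 rose in shPaf1 (50%). Their mean per array was 7.52 to 7.83 in shPhf5a, 7.56 to 7.59 in shPaf1 and 7.12 to 7.24 in shControl. Between the knockdowns 3 were higher and 3 lower in shPhf5a than in shPaf1.

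Of 8 fibroblast markers 0 were called in shPhf5a by limma (0 at an unadjusted p under 0.05), beside 37.4% of all genes. Col1a1 and Dcn rose in shPaf1 (25%, beside 35.8% of all genes). Between the knockdowns 4 were called (50%, beside 29.0% of all genes), all lower in shPhf5a. Their mean per array was 5.932 to 5.9995 in shPhf5a, 6.129 to 6.183 in shPaf1 and 5.983 to 5.999 in shControl. Of 4 measured macrophage and blood markers Cd68 alone was called against shControl, lower in shPhf5a and higher in shPaf1 (25% in each). Between the knockdowns 2 were lower in shPhf5a than in shPaf1 (50%, beside 29.0% of all genes). The defining Ptprc was at 4.9995, 5.013 and 5.037 in shPhf5a, shPaf1 and shControl, near the lowest values of the table (4.35). Cd68, by contrast, was at 9.71, 10.57 and 10.13 in these groups, above the median gene (6.70). Csf1r and Lyz2 lay below the median gene in every group. Of 4 measured mesendoderm markers, Eomes rose and Gsc fell in each knockdown (50%, beside 37.4% of all genes in shPhf5a and 35.8% in shPaf1). Both lost their calls in shPhf5a without replicate 2. Between the knockdowns 0 of these 4 were called. Without shPhf5a replicate 2, a check chosen after seeing the data, the 4 other marker lists kept their counts of rises and falls in shPhf5a and shPaf1 against shControl. Among primitive endoderm markers in shPhf5a, however, Sox7 lost its call and Gata4 gained one. Between the knockdowns, where that fit called 32.8% of all genes, the stem cell marker Pou5f1 was also called, lower in shPhf5a. Primitive endoderm markers then counted 2 higher and 3 lower, without Sox7. Of the fibroblast markers 3 were lower, without Thy1. The part of such cells in the changes of the members was not tested.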

How the data were processed

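The authors deposited 1 log2 expression value for each probe set on each array. Per the labels' protocols, 125 ng of total RNA was amplified and labelled with whole-transcript kits for Affymetrix arrays. The software, background correction, normalization and log base: not given in the sources used here. The log2 scale was inferred from the values (4.35 to 13.7, array medians from 6.22 to 6.31). Nonspecific hybridization makes changes of dim genes look smaller on such arrays. The number of arrays limits the precision.

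Of 33793 probe sets, 23521 had 1 symbol in the platform's annotation, 1814 several and 8458 none, and the brightest was kept for each of 22180 genes. Groups came from sample titles. limma 3.58.1 in R 4.3.3 (lmFit, eBayes) fitted 1 mean per group over all 9 arrays, with Benjamini-Hochberg adjustment over all genes. Tested on simulated data (shPhf5a against shControl, 22180 genes), changes of 0.5, 1 and 2 were called in 84%, 98% and 100% of changed genes, and 15 of 21980 unchanged genes were called. The simulation changed 200 genes and used normal noise with 1 SD per gene in all groups. In the data 37.4% of genes were called in shPhf5a, and its arrays spread more than the others, so these rates need not hold there.

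The members, lists and naming rule were chosen with earlier results of these data known. Named were all members, Phf5a, Paf1, called genes of the pathway lists, uncalled ligands, receptors and targets, and for Nodal, Lefty1 and Lefty2 the 4 genes of likest pattern above the median level (6.70), without predicted genes, small RNAs and olfactory genes. Cer1, Cfc1, Inha and Inhba are named as uncalled. Some genes of the lists, among them Gdf1, Dand5, T and the marker Hbb-bs, are not analysed here. Alternatives were quantile normalization, centring, a filter on dim genes, means over probe sets, all probe sets, array weights, trended and robust variance, a fit without the third group, a block for the replicate number, and leaving out each array.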

Additional observations from a re-analysis of the deposited data

How the results depend on the processing

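Each member was refitted under 18 alternatives in 3 comparisons, and 458 of 486 values kept their direction and their side of the threshold, 18 lost significance, 5 gained it and 5 changed sign. The sign changes were of values that passed in no fit: Gdf3 between the knockdowns without shPhf5a replicate 2 (-0.016), Skil between them without shPhf5a replicate 1 (0.012), and Smad2 in shPaf1 after centring (-0.020), without shPaf1 replicate 1 (-0.0082) and without shControl replicate 1 (-0.029). With single arrays left out these 3 differences lay between -0.016 and 0.19, -0.11 and 0.012, and -0.029 and 0.026. Calls of members ranged from 6 to 9 in shPhf5a, 6 to 7 in shPaf1 and 5 to 7 between the knockdowns, and those of the wider pathway from 11 to 15, 10 to 15 and 8 to 11. Leaving out single arrays gave 6 to 8, 6 to 7 and 5 to 6 members. With the replicate number as a block, 7, 7 and 6 members and 12, 13 and 10 other pathway genes were called; no call of a member changed, and Eomes in shPhf5a and Gsc in shPaf1 lost theirs among the wider pathway's calls. Arrays with the same replicate number deviated from their group means with correlations between -0.058 and 0.106. Arrays of different numbers were not compared in this way, so these correlations do not decide whether the numbers pair them. The main fit did not pair arrays, because the labels do not say what a replicate number shares. Of 36 calls in the wider pathway, 28 held in all 18 alternatives, 8 were lost in at least 1, and 0 changed sign. Quantile normalization and centring moved the median of all genes by less than 0.1. With 3 arrays per group, calls near the threshold depend on single arrays.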
